A study of Mus musculus with 32 samples.

Results

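CD8+ and CD4+ donor T cells sorted from allogeneic mice were compared, to ask how the effector programmes of the 2 T cell lineages differ during graft-versus-host disease. The comparison rests on the 4 CD8 and the 4 CD4 libraries of allogeneic hosts, 8 of the 31 libraries of the series, chosen by lineage and host as the labels give them. Donor T cells came from C57Bl6 mice and were given to Balb/c mice, a pairing with a major mismatch of histocompatibility. The allogeneic hosts had GVHD and received no regulatory T cells (Treg). The labels name day 6 for these libraries, whereas the series description names day 8 after transplantation. The labels give spleen and lymph nodes as the tissue. Each library is named by a prefix and a number (JL019-1, JL019-2, JL027-1 and JL027-2), and a CD8 and a CD4 library with the same name were taken as 1 recipient. The other hosts used for comparison were syngeneic controls without treatment (3 libraries per lineage) and recipients with GVHD that were given Treg at day 0 (4 per lineage); C57Bl6 donor cells before transplantation make the day 0 group (2 per lineage). The strain of the syngeneic hosts, the preparation of the hosts for the graft, the animals' age and any pooling of mice are not given in the sources used here.

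In an allogeneic host, donor T cells meet foreign histocompatibility molecules and turn into effector cells. CD8+ T cells read peptides on class I molecules and kill by releasing perforin, which opens the target membrane, and granzymes, proteases that start cell death inside the target. CD4+ T cells read class II molecules and act largely through membrane ligands of the TNF family and cytokines that license B cells, macrophages and other T cells. Both lineages home to the gut, skin and liver, the organs damaged in acute GVHD, through chemokine receptors and integrins.

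The coreceptors followed the labels in all 8 libraries. Levels are the authors' normalised counts, given in the order JL019-1, JL019-2, JL027-1, JL027-2. Cd8a was at 16.4, 27.7, 34.9 and 54.5 in the CD4 libraries and 14160.0, 16664, 19947 and 16836 in the CD8 libraries. Cd8b1 was at 459, 329, 570.3 and 491 in the CD4 libraries and 44470.0, 44702, 61715 and 40800.3 in the CD8 libraries. Cd4 was at 21374, 21480.5, 16706 and 19519 in the CD4 libraries and 47.9, 23.9, 41.1 and 59.6 in the CD8 libraries. The lineages did not overlap in any of these genes. The summed level of 10 pan-T markers, of which Cd5 passed the test below toward CD4, was 178182 to 206295 in CD4 and 160275 to 187726 in CD8 libraries. Sums of 14 myeloid markers (6026 to 11768 and 7037 to 11315) and 11 B cell markers (1119.9 to 1555 and 1214 to 1374) overlapped between lineages. No myeloid marker passed (limma; 4 of 14 at an unadjusted p under 0.05, which 17.3% of all genes reached); of the B cell markers, Cd79b passed toward CD8, and Pax5 and Cd22 toward CD4, while Ms4a1, which is restricted to B cells, was at most 17.6. Erythroid and platelet sums were 486 to 10844 and 645 to 14884. Of 10 Treg markers 2 passed, Nrp1 and Ikzf4, both toward CD4; Foxp3, the Treg transcription factor, was at 579, 367, 337 and 469.9 in the CD4 libraries and 334, 453, 103 and 335 in the CD8 libraries. The adjusted p of Ikzf4 rose over 0.05 without CD4 JL019-1 (0.0971), CD4 JL019-2 (0.104), CD8 JL019-2 (0.0965) and CD8 JL027-1 (0.113), with the recipient block over all libraries (0.0772), with quantile normalisation (0.113) and without JL019-2 in both lineages (0.242). Library depth in reads is unknown, because the values are scaled and not whole; the mean value per gene was 1504 to 1849 over the 8 libraries.

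Across 16741 genes, 1029 (6.15%) passed the test between lineages, 511 (3.05%) higher in CD8 and 518 (3.09%) higher in CD4 cells. The test was limma on log2(normalised count + 1), with a Benjamini-Hochberg adjusted p under 0.05 over all genes; a log2 difference is CD8 minus CD4, is shown with its standard error (SE), and understates the difference of genes with low values. "Higher" below means that a gene passed this test. The direction was the same in all 4 recipients for 1022 of the 1029, and 699 differed by more than 2-fold, 272 toward CD8 and 427 toward CD4. In 3123 genes (18.7%) the CD8 and CD4 values did not overlap, among them 973 of the 1029. Many list members named below were chosen by a low adjusted p in these same libraries. Their lack of overlap is largely set by that choice and adds no support. The median log2 difference of all genes was -0.03. With the recipient as a block and only these 8 libraries, 4321 genes (25.8%) passed, 2326 (13.9%) toward CD8 and 1995 (11.9%) toward CD4, and 1018 of the 1029 were among them. Counts under this recipient block are given below beside those of the main test, and are to be read against these shares. The count of 1029 fell to 661 without CD4 JL019-2 and to 493 without JL019-2 in both lineages. Long genes leaned toward CD4: in the longest genes, the top quartile of genomic span, the median log2 difference was -0.14, and the trend of level with span was 0.0194 to 0.0451 log2 units per doubling in CD4 and -0.0179 to 0.0136 in CD8 libraries; its part in the results was tested only by removing it, which gave 1129 genes. In bulk samples, fewer cells of a type and less RNA per cell cannot be told apart.

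**Figure D1:**
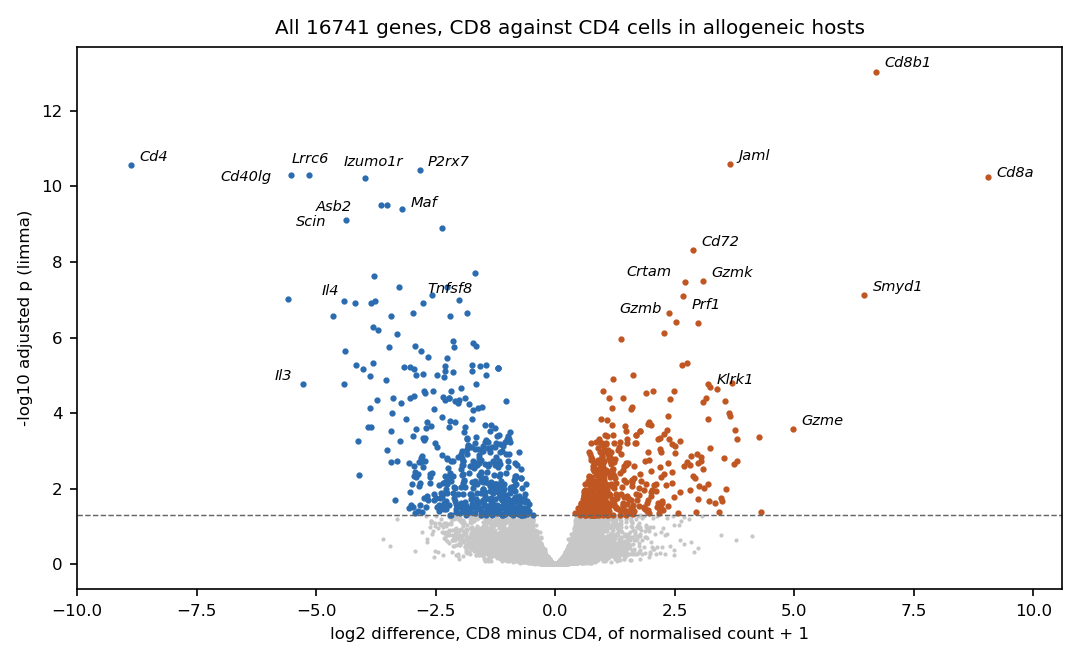
Log2 difference (CD8 minus CD4, normalised count + 1) against -log10 adjusted p (limma) for all 16741 genes, one point per gene; orange and blue points passed an adjusted p of 0.05 (dashed line). Cd8a and Cd8b1 lie at the far right and Cd4 at the far left, with Cd40lg, Il3, Lrrc6 and Scin among the genes higher in CD4 and Jaml, Cd72, Smyd1, Gzmk and Prf1 among those higher in CD8.

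Among genes of the cytotoxic granule, those that passed lay mostly on the CD8 side. Of 25 granzymes and granule proteins in the table, 9 were higher in CD8 and 1 in CD4, with a median log2 difference of 0.67 (16 and 3 with the recipient block). Thus 40% of the list passed, against 6.15% of all genes. Elsewhere the median lineage difference was 0.67 at day 0, 0.18 in syngeneic and 0.80 in Treg-treated hosts. For Gzmb, Prf1 and Gzmk, 3 of these 9, and for Tnfsf8, a TNF family ligand higher in CD4, the 250 bases upstream of the annotated start are shown, 5′ to 3′ on the gene's strand, from RefSeq on GRCm38.p6. The windows are chr14:56262335-56262584 on the minus strand (Gzmb), chr10:61297586-61297835 on the plus strand (Prf1), chr13:113180966-113181215 on the minus strand (Gzmk) and chr4:63861285-63861534 on the minus strand (Tnfsf8). Capitals mark matches, on either strand, to the RUNX motif TGTGGT, the T-box motif GGTGTGA and the AP-1 motif TGANTCA; these motifs are bound by Runx3, by T-bet and Eomes, and by Jun and Fos proteins.
Gzmb: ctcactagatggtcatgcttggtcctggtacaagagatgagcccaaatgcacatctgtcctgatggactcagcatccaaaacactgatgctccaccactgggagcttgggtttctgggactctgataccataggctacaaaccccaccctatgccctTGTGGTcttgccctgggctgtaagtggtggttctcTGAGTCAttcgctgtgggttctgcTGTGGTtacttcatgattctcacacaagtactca
Prf1: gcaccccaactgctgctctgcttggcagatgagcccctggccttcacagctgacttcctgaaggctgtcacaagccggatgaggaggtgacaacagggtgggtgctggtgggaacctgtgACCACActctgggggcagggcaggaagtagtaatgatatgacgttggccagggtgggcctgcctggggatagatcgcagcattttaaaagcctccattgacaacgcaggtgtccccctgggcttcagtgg
Gzmk: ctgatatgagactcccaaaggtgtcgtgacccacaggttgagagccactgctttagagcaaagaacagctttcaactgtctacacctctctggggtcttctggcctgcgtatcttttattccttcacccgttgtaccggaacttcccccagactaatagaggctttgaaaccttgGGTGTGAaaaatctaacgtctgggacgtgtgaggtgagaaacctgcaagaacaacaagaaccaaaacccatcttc
Tnfsf8: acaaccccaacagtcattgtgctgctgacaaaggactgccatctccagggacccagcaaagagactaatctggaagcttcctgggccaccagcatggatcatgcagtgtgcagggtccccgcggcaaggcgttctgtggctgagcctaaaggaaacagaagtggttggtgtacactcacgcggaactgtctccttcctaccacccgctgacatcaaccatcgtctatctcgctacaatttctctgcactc
The Gzmb window held 2 RUNX matches and 1 AP-1 match, the Prf1 window 1 RUNX match read on the other strand, and the Gzmk window 1 T-box match; none of the matches overlapped. The RUNX letters occurred in 13.7% of the windows of 11718 tested genes, in 16.8% of those higher in CD8 (398 windows) and in 17.8% of those higher in CD4 (359 windows). For the T-box letters the shares were 3.64%, 3.77% and 3.62%, and for the AP-1 letters 5.96%, 6.28% and 8.36%. A match describes the letters of the window and says nothing on binding.

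Gzmb, the main granzyme of activated killer cells, was at 29286, 20943, 33256 and 34407 in the CD4 libraries and 134215, 119460.0, 179709 and 180755 in the CD8 libraries. Gzma, a tryptase-like granzyme, was at 15512, 10399, 10513 and 7781 in the CD4 libraries and 92762, 83340.0, 126320.0 and 85642 in the CD8 libraries. Gzmk, another tryptase-like granzyme, was at 1293, 976, 1325 and 1315 in the CD4 libraries and 10036, 8945, 14269 and 8991 in the CD8 libraries. For each of these genes the lowest CD8 library was above the highest CD4 library. The log2 differences were 2.38 ± 0.25 (limma, adjusted p = 2.21e-07), 3.16 ± 0.46 (limma, adjusted p = 3.97e-05) and 3.09 ± 0.29 (limma, adjusted p = 3.19e-08). Prf1, which encodes perforin, was at 1891, 2068, 1865 and 2299 in the CD4 libraries and 12837, 13881, 10276 and 15096 in the CD8 libraries, a difference of 2.67 ± 0.26 (limma, adjusted p = 7.99e-08). CD4 cells were not without granule transcripts: their lowest Gzmb value was 20943.

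The rodent granzymes encoded beside Gzmb were higher in CD8 as well. Gzmc was at 616, 633, 701 and 837 in the CD4 libraries and 1198, 1482, 1789 and 2611 in the CD8 libraries, with a log2 difference of 1.29 ± 0.33 (limma, adjusted p = 0.0145). Gzmf was at 29.4, 21.4, 11.9 and 9.47 in the CD4 libraries and 199, 189.6, 171 and 390.0 in the CD8 libraries, a difference of 3.69 ± 0.50 (limma, adjusted p = 1.61e-05). Gzmd was at 0, 0, 0 and 2.11 in the CD4 libraries and 8.35, 26.4, 6.91 and 56.7 in the CD8 libraries (limma, adjusted p = 0.00185). Gzme was listed at 0 in all 4 CD4 libraries and at 23.3, 20.6, 15.7 and 108 in the CD8 libraries (limma, adjusted p = 0.000263). Gzmc, Gzmd, Gzme and Gzmf are close paralogs, so reads may have been divided among them and their separate levels are uncertain. Serpinb9, the inhibitor that shields killer cells from their own granzyme B, was also higher in CD8 (0.92 ± 0.24, limma, adjusted p = 0.0198). Tnfsf10, the death ligand TRAIL, was the member higher in CD4 (-0.68 ± 0.20, limma, adjusted p = 0.0351).

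Other members of the list did not pass. Nkg7, a granule membrane protein, was at 32738, 31795, 41944 and 36210.5 in the CD4 libraries and 63136, 66822, 95651 and 63312 in the CD8 libraries, without overlap (1.00 ± 0.32, limma, adjusted p = 0.0609, and 4.15e-06 with the recipient block). Fasl, the ligand of the Fas death receptor, was at 2798, 2978, 3630.4 and 3107 in the CD4 libraries and 4963, 4730.5, 7265 and 4936 in the CD8 libraries (0.79 ± 0.27, limma, adjusted p = 0.0845, and 5.72e-05 with the block). CD8 JL027-1 was the highest library for Gzma, Gzmk, Nkg7 and Fasl and the lowest of the CD8 libraries for Prf1. Some granule calls depended on single libraries or settings. For Gzmc, the adjusted p rose over 0.05 without CD8 JL027-2 (0.0751) and without JL019-2 in both lineages (0.0739). That of Serpinb9 did so without CD4 JL019-1 (0.0599), CD4 JL019-2 (0.0752) and CD8 JL027-1 (0.102) and without JL019-2 in both lineages (0.0926). That of Tnfsf10 did so without 7 of the 8 libraries, all but CD8 JL027-1 (0.0528 to 0.146), with the recipient block over all libraries (0.0613), with libraries centred (0.105), with quantile normalisation (0.0647) and without JL019-2 in both lineages (0.151).

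**Figure D2:**
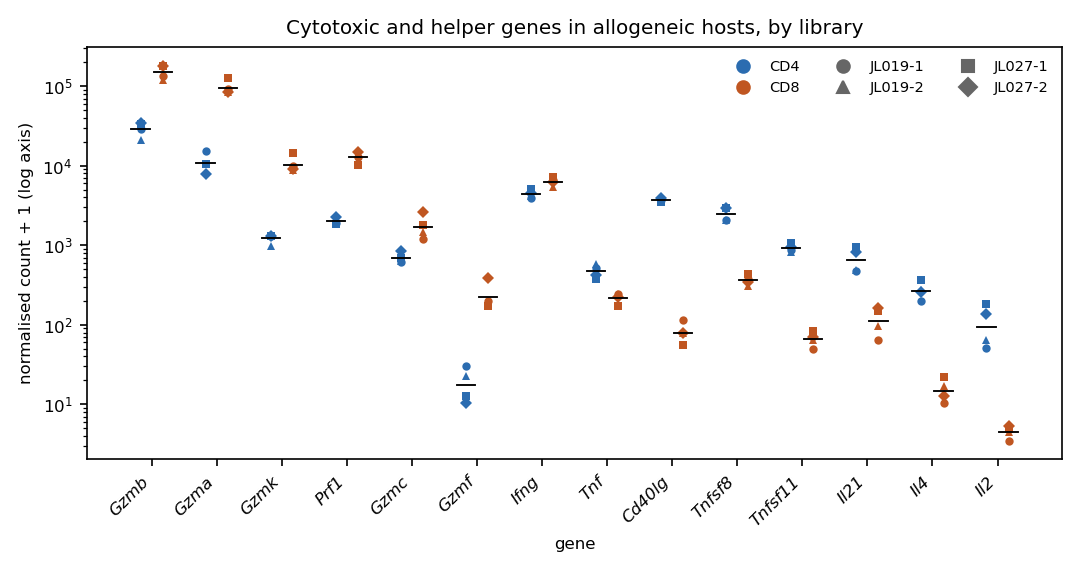
Normalised count + 1 (log axis) of 14 cytotoxic and helper genes, one point per library, blue for CD4 and orange for CD8; the marker shape gives the recipient and the bar the mean of the 4 libraries on the log scale. Granule genes from Gzmb to Gzmf lie higher in CD8, Ifng is close in the lineages, and Cd40lg, Tnfsf8, Tnfsf11, Il21, Il4 and Il2 lie higher in CD4.

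Among cytokines and TNF family ligands, those that passed were all higher in CD4. Of 26 members, 13 were higher in CD4 and 0 in CD8, with a median log2 difference of -1.39 (17 and 2 with the recipient block, and 8 and 0 without JL019-2 in both lineages). The 13 are 50% of the list, against 6.15% of all genes. Elsewhere the median lineage difference was -0.94 at day 0, -1.50 in syngeneic and -1.64 in Treg-treated hosts. Cd40lg, the ligand through which helper T cells activate B cells and dendritic cells, was at 3735, 3517, 3479.8 and 3961 in the CD4 libraries and 115, 76.8, 54.1 and 78.9 in the CD8 libraries. The difference was -5.53 ± 0.37 (limma, adjusted p = 5.00e-11), and the lowest CD4 value exceeded the highest CD8 value more than 10-fold. Tnfsf11, which encodes RANKL, was at 881, 834, 1055 and 945 in the CD4 libraries and 49.3, 64.1, 82.3 and 70.3 in the CD8 libraries (-3.80 ± 0.35, limma, adjusted p = 2.37e-08). Tnfsf8, the CD30 ligand, was at 2069, 2084, 2928 and 2975 in the CD4 libraries and 380.1, 304, 439 and 343 in the CD8 libraries (-2.77 ± 0.28, limma, adjusted p = 1.26e-07). In these ligands, chosen by their low adjusted p, the 4 recipients gave the same picture and the lineages did not overlap.

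Among secreted cytokines, Il4, Il21, Il2 and Il3 were higher in CD4. Il4, the cytokine of type 2 help, was at 201, 275, 369 and 256 in the CD4 libraries and 9.42, 15.9, 20.9 and 11.6 in the CD8 libraries (-4.18 ± 0.42, limma, adjusted p = 1.25e-07). Il21, made by follicular helper cells, was at 477, 489, 964 and 834 in the CD4 libraries and 63.9, 95.1, 147 and 159 in the CD8 libraries (-2.58 ± 0.56, limma, adjusted p = 0.00374). Il2, the T cell growth factor, was at 50.3, 63.1, 181 and 134 in the CD4 libraries and 2.49, 3.44, 3.93 and 4.29 in the CD8 libraries (-4.40 ± 0.53, limma, adjusted p = 2.32e-06). Il3, a growth factor for mast cells and basophils, was at 64.0, 76.5, 344 and 249 in the CD4 libraries and 1.69, 4.60, 5.95 and 0.862 in the CD8 libraries (-5.27 ± 0.72, limma, adjusted p = 1.69e-05). The JL027 libraries of CD4 cells held more Il2, Il21 and Il3 than the JL019 ones. Csf1, the macrophage growth factor, was at 1819.7, 2229.8, 1454 and 1891 in the CD4 libraries and 799.6, 736, 285 and 809.7 in the CD8 libraries (-1.59 ± 0.31, limma, adjusted p = 0.00155); CD8 JL027-1 was its lowest library.

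Ifng, the effector cytokine shared by killer and type 1 helper cells, was at 3919, 4203, 5069.5 and 4537 in the CD4 libraries and 6530.5, 5417, 7143 and 6275 in the CD8 libraries. The CD8 libraries were all above the CD4 libraries, but the difference of 0.52 ± 0.30 did not pass (limma, adjusted p = 0.397; 0.00138 with the recipient block). Tnf was at 515, 584, 376 and 425 in the CD4 libraries and 243, 243, 172 and 223 in the CD8 libraries and was higher in CD4 (-1.10 ± 0.30, limma, adjusted p = 0.0216). Its relatives Lta and Tnfsf14 and the type 2 cytokine gene Il13 were also higher in CD4 (-1.14, -0.98 and -2.34). Csf2, which encodes GM-CSF, was at 824, 1045, 1529 and 1176 in the CD4 libraries and 247, 307, 433 and 496 in the CD8 libraries and did not pass (-1.64 ± 0.52, limma, adjusted p = 0.0618; 2.01e-06 with the block). Some calls were lost in other settings, given with their adjusted p. Tnf did not pass without CD4 JL019-1 (0.0663), CD4 JL019-2 (0.0890) and CD8 JL027-1 (0.0814), with quantile normalisation (0.0713) and without JL019-2 in both lineages (0.123). Lta lost its call with quantile normalisation (0.0549) and without JL019-2 in both lineages (0.0680). Tnfsf14 lost it without CD4 JL019-2 (0.0680) and CD8 JL027-1 (0.0808), with quantile normalisation (0.0653) and without JL019-2 in both lineages (0.107). Il13 lost it with a pseudocount of 0.1 (0.0533) and without JL019-2 in both lineages (0.0990).

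Among genes of follicular helper T cells, the CD4 subset that helps germinal centre B cells, those that passed were all higher in CD4. Of 15 members, 10 were higher in CD4 and 0 in CD8, with a median of -1.97 (13 and 0 with the recipient block). The 10 are 66.7% of the list, against 6.15% of all genes, and 9 of them, all but Izumo1r, stand in other lists as well. Elsewhere the median lineage difference was -2.46 at day 0, -3.22 in syngeneic and -2.12 in Treg-treated hosts. Izumo1r, the folate receptor 4 gene, was at 930.0, 948, 1021 and 1283 in the CD4 libraries and 69.4, 66.6, 56.3 and 67.1 in the CD8 libraries (-3.98 ± 0.27, limma, adjusted p = 6.07e-11). Cxcr5, the receptor that leads cells into B cell follicles, was at 240.3, 141, 423 and 652 in the CD4 libraries and 35.3, 15.8, 25.3 and 30.5 in the CD8 libraries (-3.55 ± 0.48, limma, adjusted p = 1.33e-05), and its CD4 values spread more than 4-fold between JL019-2 and JL027-2. Bcl6, the repressor that drives the follicular fate, was at 250.0, 276, 218 and 204 in the CD4 libraries and 70.7, 79.1, 31.7 and 68.7 in the CD8 libraries (-1.97 ± 0.38, limma, adjusted p = 0.00120). The follicular transcription factor genes Maf (-3.21 ± 0.24, limma, adjusted p = 3.91e-10) and Tox2 (-2.62 ± 0.58, limma, adjusted p = 0.00487) lay in the same direction. Pou2af1, Angptl2, Cebpa and Slamf6 were lower in CD8 by value without passing (-1.05, -1.44, -1.17 and -0.64; all but Cebpa passed with the recipient block), and Sh2d1a stood at 0.11.

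Chemokines divided between the lineages. Of 11 members, 3 were higher in CD8 and 3 in CD4, 54.5% against 6.15% of all genes (4 and 3 with the recipient block). Ccl5, which draws T cells and monocytes, was at 912, 694, 663 and 572 in the CD4 libraries and 7738, 5668, 6233 and 4625 in the CD8 libraries (3.09 ± 0.46, limma, adjusted p = 5.12e-05). Ccl1, the ligand of CCR8, was at 1420.0, 2598, 4152 and 3330.4 in the CD4 libraries and 144, 243, 579 and 324 in the CD8 libraries (-3.22 ± 0.48, limma, adjusted p = 5.22e-05). Neither gene overlapped between lineages. Ccl4, an inflammatory chemokine, was at 1373, 1958, 2081 and 2447 in the CD4 libraries and 4509, 3977, 5732 and 4512 in the CD8 libraries (1.27 ± 0.32, limma, adjusted p = 0.0135). Xcl1, which attracts cross-presenting dendritic cells, stood at 1.61 ± 0.46 (limma, adjusted p = 0.0323), and Cxcl10 and Cxcl3 at -1.68 ± 0.47 (limma, adjusted p = 0.0280) and -2.78 ± 0.82 (limma, adjusted p = 0.0403). Ccl3 did not pass (1.04 ± 0.45, limma, adjusted p = 0.207; 0.000914 with the block). All but Ccl5 and Ccl1 rested on single libraries. The adjusted p of Ccl4 rose over 0.05 without CD4 JL019-1 (0.0658) and CD8 JL027-1 (0.0511) and without JL019-2 in both lineages (0.0535). That of Xcl1 did so without 6 of the 8 libraries, all but CD4 JL027-1 and CD8 JL019-1 (0.0555 to 0.141), with quantile normalisation (0.0631) and without JL019-2 in both lineages (0.117); of Cxcl10, without 5 of the 8 libraries, all but CD4 JL027-1, CD4 JL027-2 and CD8 JL019-1 (0.0565 to 0.105), with quantile normalisation (0.0790) and without JL019-2 in both lineages (0.185); and of Cxcl3, without 7 of the 8 libraries, all but CD8 JL027-2 (0.0509 to 0.166), with a pseudocount of 0.1 (0.0655), with quantile normalisation (0.0511) and without JL019-2 in both lineages (0.253). The chemokine count of 6 fell to 2 without CD4 JL019-1 or CD8 JL027-1 or JL019-2 of both lineages, and to 3 without CD4 JL019-2 or CD8 JL019-2 or with quantile normalisation.

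The receptors Ccr4, Gpr15 and Ccr9, known for homing to skin and gut, were higher in CD4, and Cx3cr1 was higher in CD8. Of 33 chemokine receptors and homing molecules, 4 were higher in CD8 and 7 in CD4 (8 and 15 with the recipient block). Thus 33.3% of the list passed, against 6.15% of all genes. Ccr4, a skin homing receptor, was at 462, 393, 454 and 379.6 in the CD4 libraries and 15.7, 47.1, 33.8 and 25.1 in the CD8 libraries (-3.85 ± 0.39, limma, adjusted p = 1.20e-07). Gpr15, which guides T cells to the colon, was at 1068, 971, 1144 and 1073 in the CD4 libraries and 144, 160.3, 173 and 97.7 in the CD8 libraries (-2.91 ± 0.38, limma, adjusted p = 9.57e-06). Ccr9, the small intestine receptor for CCL25, was at 3577, 3189.6, 3741 and 2694 in the CD4 libraries and 626, 843, 823 and 424 in the CD8 libraries (-2.32 ± 0.31, limma, adjusted p = 1.12e-05). In all of these every CD4 library was above every CD8 library. Itgae, the integrin chain that holds T cells at epithelium, was at 324, 226, 147 and 199.7 in the CD4 libraries and 66.4, 89.3, 51.9 and 56.6 in the CD8 libraries (-1.72 ± 0.35, limma, adjusted p = 0.00189). Itgb1, a common integrin beta chain, was also higher in CD4 (-1.36 ± 0.23, limma, adjusted p = 0.000291).

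On the CD8 side, Cx3cr1, carried by cytotoxic effector cells in blood vessels, was at 248, 309.9, 219.5 and 166 in the CD4 libraries and 1043, 1359, 1065 and 869 in the CD8 libraries (2.21 ± 0.42, limma, adjusted p = 0.00106). Itga4, the alpha chain of gut homing and VCAM-1 binding integrins, was at 4071, 5577, 5099 and 4372 in the CD4 libraries and 9158, 9814, 10448 and 7287 in the CD8 libraries (0.94 ± 0.25, limma, adjusted p = 0.0199). Cxcr6 and Cxcr3, receptors of activated T cells, did not pass: Cxcr6 was at 35507, 32281, 43960.1 and 33944 in the CD4 libraries and 24422, 23238, 36819.8 and 22739 in the CD8 libraries (-0.46 ± 0.20, limma, adjusted p = 0.215; 0.00178 with the recipient block), lower in CD8 in all 4 recipients, and Cxcr3 was at 7825, 7883, 8514 and 8803 in the CD4 libraries and 7683, 8218, 7914 and 5979 in the CD8 libraries (-0.16 ± 0.19, limma, adjusted p = 0.745). S1pr5, a receptor for egress, was also higher in CD8 (2.56 ± 0.77, limma, adjusted p = 0.0445). For Itga4, the adjusted p rose over 0.05 without CD4 JL019-1 (0.0734), CD4 JL027-2 (0.0584), CD8 JL019-2 (0.0562) and CD8 JL027-1 (0.0661), with quantile normalisation (0.0676) and without JL019-2 in both lineages (0.0783). That of S1pr5 did so without 6 of the 8 libraries, all but CD4 JL019-1 and CD8 JL027-1 (0.0646 to 0.164), with these 8 libraries alone (0.0615), with neither trend nor robust option (0.0518) and without JL019-2 in both lineages (0.118).

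Of 40 effector and memory transcription factors, 1 was higher in CD8 and 7 in CD4 (6 and 14 with the recipient block). Thus 20% of the list passed, against 6.15% of all genes. Eomes, a T-box factor of killer cells, was the member higher in CD8, at 318, 431, 316 and 389 in the CD4 libraries and 1189, 1192, 857 and 1151 in the CD8 libraries (1.59 ± 0.24, limma, adjusted p = 7.77e-05). Its close relative Tbx21, which encodes T-bet, was at 4927, 4672, 3434 and 4415 in the CD4 libraries and 4976, 5821, 2362 and 5688 in the CD8 libraries and did not differ beyond the spread (0.04 ± 0.36, limma, adjusted p = 0.975). Runx3, the factor that fixes the CD8 fate in the thymus, was at 2567, 2457, 1559 and 2335 in the CD4 libraries and 2160.0, 2228, 774 and 2431 in the CD8 libraries (-0.34 ± 0.29, limma, adjusted p = 0.620); CD8 JL027-1 lay far below its group. Zbtb7b, the ThPOK factor that fixes the CD4 fate, was at 1145, 771, 682 and 684 in the CD4 libraries and 192, 302, 143 and 349.7 in the CD8 libraries (-1.78 ± 0.37, limma, adjusted p = 0.00255). Gata3, the type 2 helper factor, was likewise higher in CD4 (-1.85 ± 0.35, limma, adjusted p = 0.00121). Zbtb7b and Runx3 belong to a list of 19 coreceptors and lineage factors, of which 3 were higher in CD8 and 7 in CD4 (4 and 10 with the recipient block). In that list 52.6% passed, against 6.15% of all genes. Crtam, an adhesion molecule of activated CD8 cells, was also higher in CD8, at 222, 346, 283 and 275 in the CD4 libraries and 1667, 1689, 2441 and 1643 in the CD8 libraries (2.72 ± 0.25, limma, adjusted p = 3.42e-08). Satb1, a chromatin organiser, was higher in CD4 (-1.30 ± 0.38, limma, adjusted p = 0.0409), but not without 7 of the 8 libraries, all but CD4 JL027-1 (0.0585 to 0.134), with neither trend nor robust option (0.0611) and without JL019-2 in both lineages (0.143).

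The remaining factors that passed lay on the CD4 side and include genes of less differentiated T cells. Tcf7, which encodes TCF-1, a factor of naive, memory and follicular helper cells, was at 5629, 5408, 4203 and 7862 in the CD4 libraries and 1115, 1191, 583 and 1324 in the CD8 libraries (-2.48 ± 0.46, limma, adjusted p = 0.000764). Id3, an inhibitor of E proteins found in the same cell states, was at 443, 422, 499.7 and 619.9 in the CD4 libraries and 99.0, 92.8, 98.4 and 113 in the CD8 libraries (-2.27 ± 0.28, limma, adjusted p = 3.42e-06). Ahr, the receptor for aryl hydrocarbons, stood at -1.67 ± 0.31 (limma, adjusted p = 0.000868). Maf was at 1919, 1882, 2313 and 2172 in the CD4 libraries and 238, 212, 191 and 251 in the CD8 libraries. The lineages did not overlap in Tcf7, Id3 or Maf. Tox, a factor linked to exhausted cells, stood at -0.01 ± 0.31 (limma, adjusted p = 0.994).

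Among inhibitory receptors, genes passed in both directions. Of 19 members, 5 were higher in CD8 and 4 in CD4, 47.4% against 6.15% of all genes (5 and 8 with the recipient block). Cd244a, the 2B4 receptor, was at 66.8, 64.1, 59.7 and 98.0 in the CD4 libraries and 577, 603, 811 and 648 in the CD8 libraries (3.19 ± 0.51, limma, adjusted p = 0.000141). Cd160 was at 2363, 2388, 3053 and 2717 in the CD4 libraries and 7259.8, 7612, 12127 and 7515 in the CD8 libraries (1.69 ± 0.29, limma, adjusted p = 0.000382). Pdcd1, which encodes PD-1, was at 8702, 10570.1, 8619 and 10422 in the CD4 libraries and 22468, 23496, 18997 and 26576 in the CD8 libraries (1.25 ± 0.28, limma, adjusted p = 0.00525). Every CD8 library was above every CD4 library for these genes. Havcr2, which encodes TIM-3, was at 3674, 4279.6, 5617 and 5043 in the CD4 libraries and 7813, 8809, 12726 and 9538 in the CD8 libraries (1.06 ± 0.29, limma, adjusted p = 0.0248), and Lag3 stood at 1.04 ± 0.31 (limma, adjusted p = 0.0464). Toward CD4 lay Cd200r1 (-2.03 ± 0.20, limma, adjusted p = 1.00e-07), Cd200 (-1.88 ± 0.27, limma, adjusted p = 3.93e-05), Cd5, a brake on receptor signalling (-1.38 ± 0.28, limma, adjusted p = 0.00226), and Btla (-1.24 ± 0.36, limma, adjusted p = 0.0382). Ctla4, the checkpoint receptor, was at 18623, 12479, 19865 and 18521 in the CD4 libraries and 17152, 11921, 18092 and 16971 in the CD8 libraries, and Tigit was at 6965, 5441, 4529.6 and 4937 in the CD4 libraries and 4193, 4358, 3092 and 3999.8 in the CD8 libraries; neither passed (limma, adjusted p = 0.930, and 0.398). With the recipient block Tigit, lower in CD8 in all 4 recipients (-0.48), passed (limma, adjusted p = 0.00341). Under some settings, given with the adjusted p, the Havcr2 difference did not pass without CD4 JL019-1 (0.0928), CD4 JL019-2 (0.0746), CD8 JL027-1 (0.10) and CD8 JL027-2 (0.0592), with quantile normalisation (0.0860) and without JL019-2 in both lineages (0.114). Lag3 lost its call without 7 of the 8 libraries, all but CD8 JL027-1 (0.0610 to 0.157), with a pseudocount of 0.1 (0.0508), with neither trend nor robust option (0.0501), with the length trend removed (0.0596) and without JL019-2 in both lineages (0.185), and Btla without 7 of the 8 libraries, all but CD8 JL027-1 (0.0625 to 0.104), with neither trend nor robust option (0.0564) and without JL019-2 in both lineages (0.135).

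Of 15 costimulatory receptors, 3 were higher in CD4 and 0 in CD8 (6 and 4 with the recipient block). The 3 are 20% of the list, against 6.15% of all genes. Tnfrsf4, which encodes OX40, was at 16532, 14254, 19789 and 19776 in the CD4 libraries and 3885, 4072, 6099 and 5661 in the CD8 libraries (-1.85 ± 0.32, limma, adjusted p = 0.000462). Tnfrsf25, the death receptor 3 gene, stood at -2.03 ± 0.30 (limma, adjusted p = 5.28e-05). Icos was at 14499, 13248, 16753 and 17431 in the CD4 libraries and 7677, 5365, 9085 and 6622 in the CD8 libraries (-1.13 ± 0.30, limma, adjusted p = 0.0203). Neither Tnfrsf4 nor Icos overlapped between lineages. Of 29 cytokine receptors, 1 was higher in CD8 and 3 in CD4, 13.8% against 6.15% of all genes (4 and 12 with the block). The member higher in CD8 was Il10rb (0.62 ± 0.15, limma, adjusted p = 0.0107), which did not pass without CD4 JL019-2 (0.0610) and without JL019-2 in both lineages (0.123). Those higher in CD4 were Il9r (-4.01 ± 0.52, limma, adjusted p = 6.65e-06), Il1r1 (-3.04 ± 0.44, limma, adjusted p = 3.94e-05) and Il6ra (-2.23 ± 0.37, limma, adjusted p = 0.000228), receptors for cytokines that shape helper subsets. Il2ra, the high-affinity IL-2 receptor chain, was at 5079, 5462, 5783 and 5686 in the CD4 libraries and 4878, 6269.6, 7084 and 7397 in the CD8 libraries and did not pass (0.20 ± 0.33, limma, adjusted p = 0.815). The adjusted p of Icos rose over 0.05 without CD4 JL027-1 (0.0541), CD4 JL027-2 (0.0633), CD8 JL019-2 (0.0799) and CD8 JL027-2 (0.0583), with libraries centred (0.0570) and without JL019-2 in both lineages (0.115). Leaving out CD4 syngeneic JL019-2, which only enters the estimate of the spread, raised the costimulatory count to 7, 3 toward CD8 and 4 toward CD4. That count was 5 with quantile normalisation or with the length trend removed. The cytokine receptor count rose to 8 without that library, 1 toward CD8 and 7 toward CD4.

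Among killer cell receptors, those that passed were all higher in CD8. Of 22 receptors and adaptors, 7 were higher in CD8 and 0 in CD4, with a median log2 difference of 0.98 (14 and 3 with the recipient block, and 12 in all without CD4 syngeneic JL019-2). Klrk1, which encodes NKG2D, the receptor for stress ligands, was at 1567, 1239, 1423 and 1283 in the CD4 libraries and 11369, 11364, 18424 and 10512 in the CD8 libraries (3.20 ± 0.44, limma, adjusted p = 1.72e-05). Klrc1, which encodes the inhibitory NKG2A, was at 8518, 8947, 10018 and 7642 in the CD4 libraries and 19078, 18944, 30522 and 20354 in the CD8 libraries (1.32 ± 0.25, limma, adjusted p = 0.000923). Klre1 was at 97.7, 108, 68.6 and 70.8 in the CD4 libraries and 574, 602, 820.4 and 499.7 in the CD8 libraries (2.84 ± 0.55, limma, adjusted p = 0.00135). The Ly49 receptor genes Klra5, Klra6 and Klra7 stood at 3.09, 3.12 and 3.34; they belong to a family of near-identical copies, so their separate levels are uncertain. The other was Klrb1c (1.91 ± 0.56, limma, adjusted p = 0.0387). For Klra6, the adjusted p rose over 0.05 without JL019-2 in both lineages (0.0851), that of Klra7 without CD4 JL027-2 (0.121), CD8 JL027-1 (0.0899) and CD8 JL027-2 (0.0627), and that of Klrb1c without 7 of the 8 libraries, all but CD8 JL027-2 (0.0708 to 0.103), with the recipient block over all libraries (0.0557), with quantile normalisation (0.0553), with neither trend nor robust option (0.0534) and without JL019-2 in both lineages (0.166).

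Natural killer cell markers moved with these genes. Of 10 such markers 5 were higher in CD8 and 0 in CD4 (3 in all without CD4 JL019-2), 50% against 6.15% of all genes. Their summed level was 8887 to 16699 in CD4 and 87305 to 130570.0 in CD8 libraries, most of it Gzma. In every CD8 library 1 of the 10 was listed at 0, and in the CD4 libraries 0 to 2 were. Ncr1, which is restricted to NK and related innate cells, was at 10.5, 4.87, 3.98 and 4.22 in the CD4 libraries and 6.49, 3.37, 8.67 and 1.72 in the CD8 libraries, near 0 in both lineages, and Klra8 was listed at 0 in all 4 CD8 libraries. Klrb1c, the NK1.1 gene, was at 149, 133, 129 and 159 in the CD4 libraries and 692, 525, 636 and 358 in the CD8 libraries, and Fcer1g at 456, 382, 461 and 359 in the CD4 libraries and 1682, 1557, 1779 and 1533 in the CD8 libraries (limma, adjusted p = 0.103; 6.06e-08 with the recipient block). The list shares Eomes, Gzma and Klre1 with killer T cells. 

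Cell cycle genes lay on the CD8 side. All 27 members had a positive log2 difference, with a median of 0.84, and 14 passed toward CD8 and 0 toward CD4 (27 and 0 with the recipient block). The 14 are 51.9% of the list, against 6.15% of all genes. Elsewhere the median lineage difference was 1.73 at day 0, -0.04 in syngeneic and 1.01 in Treg-treated hosts. Top2a, which untangles chromosomes, was at 6098, 5954, 7883 and 7572 in the CD4 libraries and 9399, 12545, 17608 and 13292 in the CD8 libraries (0.92 ± 0.16, limma, adjusted p = 0.000558). Ccna2, the cyclin of S and G2 phase, was at 7058, 5665, 8454 and 8494 in the CD4 libraries and 12114, 13480.0, 20059 and 14750.5 in the CD8 libraries (1.02 ± 0.19, limma, adjusted p = 0.000981). Cenpe, a centromere motor, stood at 0.94 ± 0.18 (limma, adjusted p = 0.00104). Mki67, which encodes the proliferation marker Ki-67, was at 5885, 5893, 5226 and 5085 in the CD4 libraries and 7783, 10680.5, 9130.1 and 10079 in the CD8 libraries and did not pass (0.76 ± 0.24, limma, adjusted p = 0.0613; 0.000152 with the block). The count of 14 fell to 8 without CD4 JL019-2 and to 7 without JL019-2 in both lineages. Of 22 glycolysis and hypoxia genes 0 passed (limma; 4 at an unadjusted p under 0.05, against 17.3% of all genes; 1 without CD4 syngeneic JL019-2; 7 toward CD8 and 2 toward CD4 with the recipient block), and their median was 0.05.

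The interferon-stimulated genes that passed were all higher in CD4. Of 25 members, 10 were higher in CD4 and 0 in CD8, and 23 had a negative difference (median -0.74; 19 and 0 with the recipient block). The 10 are 40% of the list, against 6.15% of all genes. Elsewhere the median lineage difference was -0.24 at day 0, -0.07 in syngeneic and -1.23 in Treg-treated hosts. Ifi27l2a was at 27570.2, 19296, 29963 and 29114 in the CD4 libraries and 6835, 5544, 6719 and 5009 in the CD8 libraries (-2.13 ± 0.25, limma, adjusted p = 1.73e-06). Oasl2, of the antiviral oligoadenylate synthetase family, was at 902, 655, 618 and 587 in the CD4 libraries and 213, 132, 168 and 115 in the CD8 libraries (-2.15 ± 0.28, limma, adjusted p = 8.19e-06). Rsad2, which encodes the antiviral enzyme viperin, was at 408, 295, 587 and 519.8 in the CD4 libraries and 111, 101, 151 and 96.2 in the CD8 libraries (-1.95 ± 0.37, limma, adjusted p = 0.000980). Ifi44 stood at -2.53 ± 0.39 (limma, adjusted p = 7.66e-05). The lineages did not overlap in these genes. Members that did not pass include Isg15 (-0.73; 0.000959 with the block) and Irf7 (-0.40; 0.0128 with the block). Of 24 genes of the T cell receptor complex and its signalling, 2 were higher in CD4, Tespa1 (-1.32 ± 0.24, limma, adjusted p = 0.000804) and Cd6 (-1.79 ± 0.45, limma, adjusted p = 0.0137). They are 8.33% of the list, near the 6.15% of all genes that passed. With the block the counts were 4 toward CD8 and 10 toward CD4, where 13.9% and 11.9% of all genes passed. Cd6 did not pass, by its adjusted p, without CD8 JL027-1 (0.0659) and without JL019-2 in both lineages (0.0504), and the count of these 2 rose to 5 without CD4 syngeneic JL019-2.

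**Figure D3:**
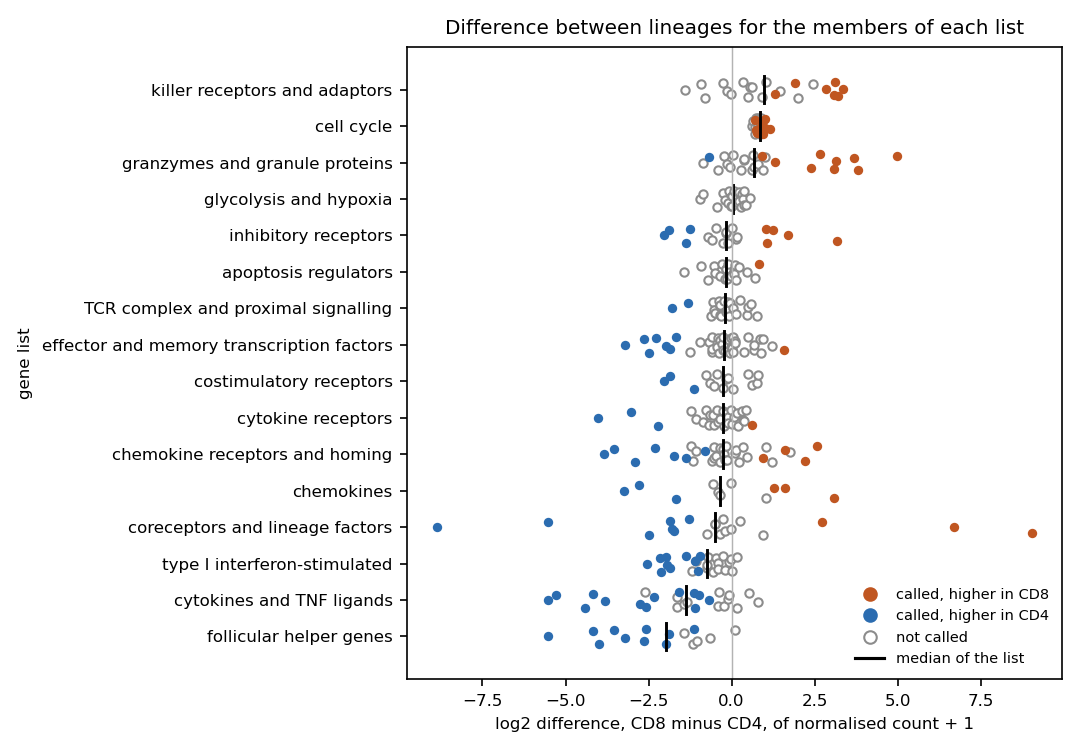
Log2 difference (CD8 minus CD4, normalised count + 1) of each member of 16 gene lists, one point per gene; orange points passed toward CD8, blue points toward CD4, open points did not pass (adjusted p of 0.05), and the black bar is the median of the list. Killer receptors, cell cycle and granule genes have the highest medians, and follicular helper genes (-1.97), cytokines (-1.39) and interferon-stimulated genes (-0.74) the lowest.

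Outside the lists, genes were named by the lowest p among those whose lineages did not overlap, so that the lack of overlap below is part of the choice. Jaml, an adhesion molecule of the junctional family, was at 199.9, 176, 142 and 235 in the CD4 libraries and 2032, 2612, 2644 and 2109 in the CD8 libraries (3.65 ± 0.23, limma, adjusted p = 2.56e-11). Smyd1, a histone methyltransferase gene and a neighbour of Cd8b1 on the chromosome, was at 0.774, 5.91, 6.78 and 0 in the CD4 libraries and 294, 279.9, 308 and 225 in the CD8 libraries (6.46 ± 0.63, limma, adjusted p = 7.58e-08). Cd72, known as a B cell coreceptor, was at 84.2, 96.3, 78.0 and 131 in the CD4 libraries and 736, 687, 769 and 655 in the CD8 libraries (2.88 ± 0.24, limma, adjusted p = 4.74e-09). Of the B cell markers above, Cd79b also passed toward CD8, and Pax5 and Cd22 toward CD4, while the sums overlapped. The part of B cells in the Cd72 difference was not tested. The other genes named toward CD8 were Rcn3 (2.53), Bend4 (2.98), Sult2b1 (2.28), Tec (1.38), Susd1 (2.76), Golm2 (1.63) and Rpa2 (1.21), with log2 differences in parentheses.

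Toward CD4, P2rx7, the channel opened by extracellular ATP, was at 2951, 3454, 2529.8 and 2618 in the CD4 libraries and 410.4, 517, 396 and 303 in the CD8 libraries (-2.84 ± 0.18, limma, adjusted p = 3.78e-11). Lrrc6 was at 727, 645, 727 and 653 in the CD4 libraries and 21.4, 16.0, 28.4 and 11.1 in the CD8 libraries (-5.16 ± 0.34, limma, adjusted p = 5.09e-11). Scin, an actin-severing protein, was at 1627, 1400.0, 1206 and 1533 in the CD4 libraries and 51.1, 53.2, 93.9 and 84.7 in the CD8 libraries (-4.37 ± 0.34, limma, adjusted p = 7.59e-10). Asb2, part of a ubiquitin ligase, and Tbc1d4, a regulator of vesicle traffic, stood at -3.52 ± 0.26 (limma, adjusted p = 3.12e-10) and -3.65 ± 0.27 (limma, adjusted p = 3.12e-10). The other genes named toward CD4 were Selenop (-2.36), Nfkb1 (-1.68), Slfn5 (-2.27), Cd83 (-3.26) and Cd81 (-2.59).

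To see whether the lineages differed in the same way elsewhere, the CD8 minus CD4 difference in allogeneic hosts was compared with that in other hosts, which share no library with it. Of the 1029 genes, the sign of the difference was the same in Treg-treated hosts for 1015, at day 0 for 828 and in syngeneic hosts for 715. These genes were chosen by their allogeneic difference. Over all genes, the allogeneic differences correlated with those of Treg-treated hosts at r 0.630, of day 0 at 0.284 and of syngeneic hosts at 0.371. The order of day 0 and syngeneic hosts thus depended on the genes counted. The size of the difference itself differed from syngeneic hosts in 779 genes (4.65%; 451 positive, 2.69%, and 328 negative, 1.96%), from day 0 in 161 (0.962%; 48 positive, 0.287%, and 113 negative, 0.675%), and from Treg-treated hosts in 1 (0.00597%), the glucagon gene Gcg. At an unadjusted p under 0.05 the Treg-treated comparison held 430 genes (2.57%). With the recipient block and only the groups compared, the counts were 439, 926 and 4. The day 0 count rested on few libraries: it was 69, 71, 84 or 81 when 1 day 0 library was left out, and 373 without CD4 syngeneic JL019-2. With libraries centred on their medians, the syngeneic split turned to 317 positive and 429 negative, and the day 0 split to 65 and 58; with quantile normalisation they were 325 and 329, and 96 and 124. Markers of other cell types moved with these comparisons. Myeloid sums, 6026 to 11768 in CD4 and 7037 to 11315 in CD8 libraries of allogeneic hosts, were 82279.6 to 3658160.0 in CD4 and 39392 to 62600.2 in CD8 libraries of syngeneic hosts, and 24754 to 88222 and 12147 to 32104 in those of Treg-treated hosts. At day 0, erythroid and platelet sums were 769 to 1474 in CD4 and 31792 to 35954 in CD8 libraries, and B cell sums 7789 to 9696 and 20484 to 32106. The part of these markers in the changes between hosts was not tested. The CD4 syngeneic library JL019-2 stood apart, with the highest of these myeloid sums and a sum of NK markers of 73460; the comparisons below are against all 3 libraries, and without it 665 genes differed from syngeneic hosts. The changes against syngeneic hosts given below for Gzmk, Pdcd1, Havcr2, Id3, Cxcr6 and Cxcr3, those against day 0 for Gzmk, Pdcd1, Il2ra, Nrp1, Ly6c1, Tnfsf8, Ccr9 and Itgae, and that against Treg-treated hosts for Gcg kept their calls when any 1 library of the groups compared was left out.

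Gzmk was at 1296, 837 and 1073 in CD4 and 128, 128 and 269 in CD8 cells of syngeneic hosts, and under 82 in all day 0 libraries. Its lineage difference was -2.68 in syngeneic, 0.04 at day 0, 3.09 in allogeneic and 2.71 in Treg-treated hosts. The allogeneic difference exceeded the syngeneic one by 5.76 ± 0.44 (SE; limma, adjusted p = 5.95e-09) and the day 0 one by 3.05 ± 0.49 (SE; limma, adjusted p = 0.00112). Pdcd1 changed in the same direction: its difference was -3.06 in syngeneic hosts and -2.81 at day 0, where CD4 cells held 1015 and 941 and CD8 cells 131 and 147, against 1.25 in allogeneic hosts. The change against syngeneic hosts was 4.32 ± 0.43 (SE; limma, adjusted p = 3.58e-07), and against day 0 4.06 ± 0.49 (SE; limma, adjusted p = 2.26e-05). For Havcr2 the change against syngeneic hosts was 4.12 ± 0.44 (SE; limma, adjusted p = 1.15e-06); its difference at day 0, where values were under 20, was 0.39.

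Il2ra was CD4-biased before transfer and level in allogeneic hosts, while Nrp1 and Ly6c1 kept a smaller CD4 bias there. Il2ra was at 1981 and 1923 in CD4 and 82.3 and 67.7 in CD8 cells at day 0, a difference of -4.69, against 0.20 in allogeneic hosts, a change of 4.89 ± 0.56 (SE; limma, adjusted p = 1.30e-05). The difference of Nrp1, a semaphorin receptor, was -3.44 at day 0 and -0.98 in allogeneic hosts, a change of 2.47 ± 0.32 (SE; limma, adjusted p = 5.35e-05). Both are Treg markers; Foxp3 averaged 1061 in CD4 and 8.25 in CD8 cells at day 0, and its part in these changes was not tested. The difference of Ly6c1 was -6.13 at day 0 and -1.89 in allogeneic hosts, a change of 4.24 ± 0.54 (SE; limma, adjusted p = 3.97e-05); its CD4 level was 7432 and 6659.6 at day 0 and 502, 357, 311 and 306 in allogeneic hosts.

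In the opposite direction, the difference of Tnfsf8 was 0.25 at day 0, -2.77 in allogeneic and -2.78 in Treg-treated hosts. In syngeneic hosts it was 0.21, from 2428, 768 and 2948 in CD4 and 1786, 2146 and 2221 in CD8 libraries, and turned to -0.39 without CD4 JL019-2, the library that stood apart. Its CD8 level was 1624 and 2009.7 at day 0 and 380.1, 304, 439 and 343 in allogeneic hosts; the change in the difference was -3.02 ± 0.49 (SE; limma, adjusted p = 0.00105) against day 0. Ccr9 and Itgae reversed: CD8 cells held more before transfer and less in allogeneic hosts. Ccr9 was at 5415 and 7588 in CD8 and 729.9 and 657 in CD4 cells at day 0, and its difference changed by -5.53 ± 0.54 (SE; limma, adjusted p = 1.06e-06). Itgae was at 2337 and 3212 in CD8 and 122 and 144 in CD4 cells at day 0, and its difference changed by -6.08 ± 0.60 (SE; limma, adjusted p = 1.06e-06). Id3 was at 3130.4, 3273 and 4945 in CD8 cells of syngeneic hosts and at 99.0, 92.8, 98.4 and 113 in those of allogeneic hosts, and its difference changed by -3.17 ± 0.43 (SE; limma, adjusted p = 2.49e-05) against syngeneic hosts.

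Some genes with a CD8 bias in syngeneic hosts did not show it in allogeneic hosts. Cxcr6 had a difference of 2.72 in syngeneic and -0.46 in allogeneic hosts, a change of -3.18 ± 0.31 (SE; limma, adjusted p = 3.35e-07). Cxcr3 changed by -2.88 ± 0.30 (SE; limma, adjusted p = 6.01e-07). In both, CD4 cells of syngeneic hosts were at or under 2696 and those of allogeneic hosts at or over 7825. Lrrc6 was at 718, 931, 531 and 923 in CD4 and 3.33, 7.36, 6.29 and 8.73 in CD8 cells of Treg-treated hosts, so that its CD4 bias was found there as in allogeneic hosts, and at or under 33.1 in all libraries of day 0 and syngeneic hosts. Gcg, the hormone precursor of glucagon, was at 802, 945, 573 and 1050.5 in CD4 cells of Treg-treated hosts, at 236, 167 and 350.4 in those of syngeneic hosts and at 3.29, 5.03, 10.2 and 11.8 in those of allogeneic hosts. It was at or under 2.26 in the CD8 libraries of Treg-treated and allogeneic hosts. The lineage difference of Gcg changed by 6.48 ± 0.84 (SE; limma, adjusted p = 0.000534); no gene passed with a pseudocount of 0.1 or within 1 prefix.

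**Figure D4:**
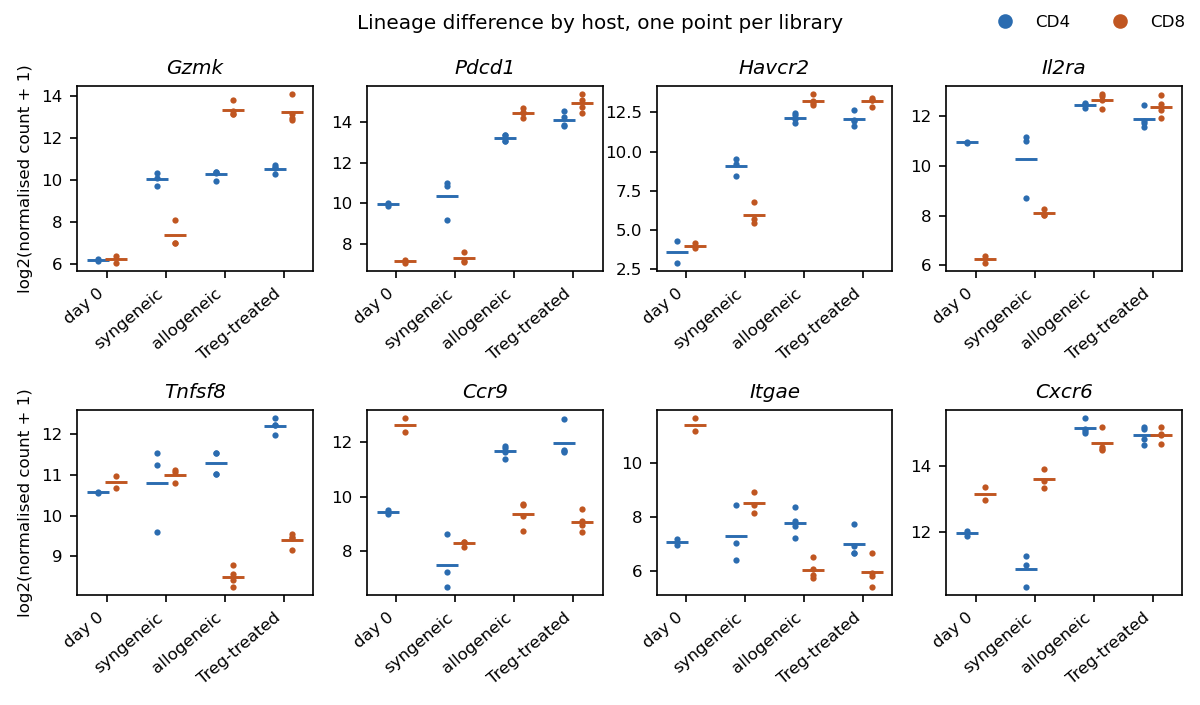
Log2(normalised count + 1) of 8 genes by host, one point per library, blue for CD4 and orange for CD8, with bars at the group means. Every CD8 library lies above every CD4 library for Gzmk and Havcr2 in allogeneic and Treg-treated hosts and for Pdcd1 in allogeneic hosts, whereas Pdcd1 overlaps in Treg-treated hosts. Il2ra closes its gap, Tnfsf8 has a gap toward CD4 in both GVHD hosts, the means of Ccr9 and Itgae lie on the CD8 side at day 0 and in syngeneic hosts and on the CD4 side in both GVHD hosts, and Cxcr6 lies higher in CD8 at day 0 and in syngeneic hosts, and overlaps between lineages in both GVHD hosts.

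T cell receptor beta chains (TRB), amplified from the same cDNA, gave another view of the lineages. The TRB reads numbered 10864 to 47997 per library, and a clonotype is 1 combination of V gene, J gene and CDR3 amino acids. Within recipients the lineages shared few clonotypes, with 1 exception that precedes all receptor results. In JL019-1, JL027-1 and JL027-2 the CD4 and CD8 libraries of a recipient had 39, 67 and 39 clonotypes in common, within or near the 23 to 62 found between different recipients. In JL019-2 they had 411, and these held 47.3% of the CD4 reads and 8.36% of the CD8 reads. The Morisita-Horn overlap, which is 0 for no common clonotypes and 1 for equal repertoires, was 0.0831 there and 0.00136 to 0.00223 in the other recipients. Whether this overlap arose in the cells, in the receptor amplification or in the receptor tables was not tested. Results are therefore given with and without JL019-2.

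At equal read depth, CD8 repertoires were more uneven than CD4 repertoires. All libraries were reduced to 8194 reads by random draws. Clonality, 1 minus the normalised Shannon entropy of the clonotype shares, was 0.10, 0.122, 0.111 and 0.120 in CD4 and 0.152, 0.128, 0.154 and 0.161 in CD8 libraries, so the lineages did not overlap at this depth. The means were 0.113 ± 0.00970 and 0.149 ± 0.0143 (SD, n = 4 each; difference 0.0356; 2-sided exact permutation test, p = 0.0286, the smallest this design allows, and 0.0429 adjusted over 3 receptor measures). The number of clonotypes was 3116 ± 138 in CD4 and 2331 ± 261 in CD8 libraries (difference -784.0; exact permutation p = 0.0286, adjusted 0.0429). The 10 largest clonotypes held 12.0% ± 2.28 and 17.3% ± 2.09 of reads (difference 5.26; exact permutation p = 0.0571, adjusted 0.0571), and here CD8 JL019-2 (14.4%) lay below CD4 JL019-2 (14.6%). Without JL019-2 in both lineages the differences were 0.0454, -907.7 and 7.09 (exact permutation p = 0.10 for each, the smallest for 3 against 3). Paired over recipients, an exact sign-flip test gave p = 0.125, 0.125 and 0.250, where 0.125 is the smallest for 4 recipients. Without the random draw the clonality difference was 0.0541 (exact permutation p = 0.0571), and the lineages overlapped, with CD4 JL027-1 at 0.143 and CD8 JL019-2 at 0.141. The clonotype difference was then -224.5 (exact permutation p = 0.80).

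V segment use separated the lineages. Of 22 TRBV segments, 14 (63.6%) differed, 7 toward CD8 and 7 toward CD4 (edgeR quasi-likelihood test on summed reads, adjusted p under 0.05); segments share 1 total, so a gain of one lowers the others. TRBV29 held 2.19, 1.87, 1.39 and 1.22% of TRB reads in the CD4 libraries and 11.9, 10.8, 9.12 and 14.0% in the CD8 libraries (log2 difference 2.61; edgeR quasi-likelihood, adjusted p = 1.08e-06). TRBV17 held 1.58, 1.10, 1.57 and 1.30% and 5.83, 7.10, 7.32 and 4.13% (log2 difference 1.96; edgeR quasi-likelihood, adjusted p = 0.000669). In the other direction, TRBV26 held 7.16, 6.93, 5.41 and 5.80% and 0.712, 1.49, 0.667 and 0.847% (log2 difference -2.99; edgeR quasi-likelihood, adjusted p = 4.24e-12). The CD4 and CD8 libraries did not overlap in these segments; CD8 JL019-2 had the highest TRBV26 share among CD8 libraries. TRBV23 had a mean share of 2.39% in CD4 and 0.299% in CD8, and TRBV31 of 7.31% and 2.30%; both passed. TRBV16 was the most used segment in all 8 libraries, at 47.6% to 58.6%, and did not pass. Without JL019-2 in both lineages 12 segments passed.

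The V segment transcripts in the RNA table, looked up after the receptor result was seen, pointed the same way. All 14 segments had the same sign there. The 7 segments higher in CD8 receptor reads also passed in RNA toward CD8, and 2 of the 7 higher in CD4 receptor reads, Trbv26 and Trbv23, passed toward CD4. Trbv29 was at 236, 161, 182 and 144 in the CD4 libraries and 1924, 1459, 1733 and 1678 in the CD8 libraries (3.24 ± 0.45, limma, adjusted p = 2.01e-05). Trbv17 stood at 2.51 ± 0.46 (limma, adjusted p = 0.000723). Trbv26 was at 2247, 1818, 1899 and 2111 in the CD4 libraries and 327, 332, 346 and 274 in the CD8 libraries (-2.66 ± 0.33, limma, adjusted p = 3.31e-06). RNA and receptor reads come from the same cDNA of the same cells, so they are 2 readouts of 1 sample, not further samples.

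**Figure D5:**
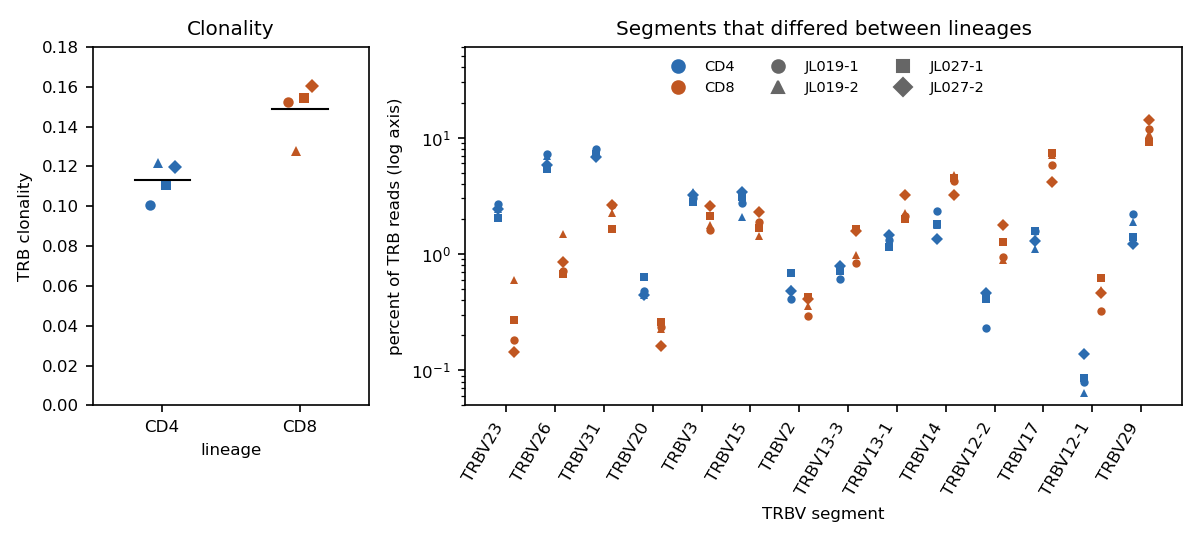
Left, TRB clonality at 8194 reads, one point per library with bars at the means; right, percent of TRB reads (log axis) of the 14 TRBV segments that differed, one point per library, blue for CD4 and orange for CD8, with marker shapes for recipients. The CD8 clonality points, 0.128 to 0.161, lie above the CD4 points, 0.10 to 0.122, and TRBV29 and TRBV17 lie higher in CD8 whereas TRBV26, TRBV23 and TRBV31 lie higher in CD4.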

How the data were processed

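Bulk RNA and T cell receptor libraries came from 1 full-length cDNA per sample (SMARTer v4, Nextera XT and nested PCR), per the labels' protocols. The RNA values are normalised counts, a signal that the authors had scaled between libraries before deposit; the submitters' processing notes name FastQC 0.11.7, kallisto, DESeq2 and the builds GRCm38 and mm10, with no roles. The deposited receptor tables give read counts per clonotype and their percent of the library. Authors' fold changes that name no groups were not used.

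Normalised counts were tested as log2(value + 1), over genes with a mean of at least 1, with limma 3.58.1 in R 4.3.3. The fit had 1 mean per group over all 31 libraries, a mean-variance trend and robust variances; p-values were adjusted over all genes (Benjamini-Hochberg). TRBV reads were tested with edgeR 4.0.16, and receptor measures with exact permutation tests in scipy 1.17.1, after 20 random draws of 8194 reads. The fits were tested on simulated data. Same-numbered CD4 and CD8 libraries deviated together (r 0.135 to 0.416 in 4 of 4 pairs, against -0.275 to 0.126 between recipients), so the numbers were taken to pair the samples. With the prefix means removed as well, r was 0.0485 for JL019 and 0.282 for JL027. Each is 1 value, because the pairs of a prefix then mirror each other and must give the same r. The pairing comes from the prefix and number in the labels, which do not say outright that 1 animal gave both. Where the labels do not say that samples are separate animals, p-values measure only the spread between these samples, which may be technical. Where a deposited receptor total differed from the reads listed (1 TRA and 1 TRB library), the reads listed were used.

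Members and the 16 gene lists (351 of 363 genes in the table) were chosen with earlier results of these data known. Named genes are up to 4 members per list and direction with the lowest adjusted p, other members with a fitting textbook role, up to 10 non-overlapping genes per direction outside the lists, and up to 5 per direction for each comparison of hosts. Members named because a count was 5 or fewer, marker genes and Trbv transcripts were added after their values were seen. A few list members that passed or were tested are not reported here. Alternatives covered the filter, pseudocount, normalisation, model, blocks, gene length and left-out libraries.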

Additional observations from a re-analysis of the deposited data

Results flagged for a closer look

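In some groups of 4 libraries, 1 library lay far from the other 3 (by Dixon's ratio of the gap to the range, at a size that chance gives in about 1 of 20 groups). CD8 JL027-1 was such a library for 15 genes. It was the highest CD8 library, in normalised counts, for Crtam (2441), Nkg7 (95651), Fasl (7265), Itgb1 (21072), Cxcr6 (36819.8), Cd160 (12127), Btla (1907), Klrk1 (18424) and Klrc1 (30522). It was the lowest for Runx3 (774), Csf1 (285), Tnfsf14 (146), Eomes (857), Bcl6 (31.7) and Cd6 (2507). In other libraries the values were 976 for Gzmk in CD4 JL019-2, 2.11 for Gzmd in CD4 JL027-2, 1192 for Tox2 in CD4 JL027-2, 12479 for Ctla4 in CD4 JL019-2, 11921 for Ctla4 in CD8 JL019-2, 148 for Il9r in CD4 JL027-1, 2910.1 for Ccne1 in CD8 JL019-1, 322 for Sult2b1 in CD4 JL019-1, 1030.1 for Dop1b in CD8 JL019-1 and 2719 for the number of TRB clonotypes in CD8 JL019-2.

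The CD8 minus CD4 difference differed between allogeneic and other hosts for the following genes (limma, adjusted p under 0.05); values are the allogeneic minus the other difference on the log2 scale. Against syngeneic hosts the positive values were Gzmk (5.76), Pdcd1 (4.32), Havcr2 (4.12), Nrp1 (2.88), Gnb4 (2.95), Il2ra (2.38), Ly6c1 (3.38), Gcg (4.34), Itga4 (3.33) and Tnfrsf4 (3.73), and the negative ones Tnfsf8 (-2.98), Gpr15 (-3.53), Ccr9 (-3.10), Itgae (-2.92), Cxcr5 (-4.03), Id3 (-3.17), Cxcr6 (-3.18), Cxcr3 (-2.88), Pim2 (-3.67), Itm2a (-3.69), Dop1b (-3.60), Lrrc6 (-2.93), Scart1 (-4.97), Sytl3 (-2.09), Nkg7 (-2.58), Klrc1 (-3.20) and Cd160 (-2.90). Against day 0 the positive values were Gzmk (3.05), Pdcd1 (4.06), Nrp1 (2.47), Gnb4 (1.61), Il2ra (4.89), Ly6c1 (4.24) and Tnfrsf4 (3.42), and the negative ones Tnfsf8 (-3.02), Gpr15 (-3.88), Ccr9 (-5.53), Itgae (-6.08), Cxcr5 (-3.91), Id3 (-2.24), Cxcr6 (-1.67), Pim2 (-2.20), Dop1b (-1.95), Lrrc6 (-5.74), Scart1 (-5.67), Sytl3 (-2.45) and Nkg7 (-2.75). Against Treg-treated hosts it was Gcg (6.48). Against day 0, the adjusted p of Gnb4, Cxcr5, Id3, Cxcr6, Dop1b and Nkg7 rose over 0.05 when 1 day 0 library was left out (0.0571 to 0.172), and that of Id3, Cxcr6, Dop1b and Nkg7 also with libraries centred (0.050 to 0.117). With the recipient block the syngeneic value of Il2ra had an adjusted p of 0.0842. Without CD4 syngeneic JL019-2, the library that stood apart, the syngeneic values were 3.17 for Il2ra, -2.81 for Gpr15 and -2.38 for Tnfsf8. These still passed, but the Gpr15 difference within syngeneic hosts turned from 0.62 to -0.10. With a pseudocount of 0.1, the adjusted p of Gcg was 0.295 against syngeneic and 0.894 against Treg-treated hosts.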

How the results depend on the processing

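Counts of genes past the threshold kept within 1.5 times for the filter, pseudocount, centring, quantile normalisation, length and prefix-block settings, except where given here. In the order CD8 minus CD4 in allogeneic hosts (1029), then its difference from syngeneic (779), day 0 (161) and Treg-treated hosts (1), the counts were 1802, 494, 519 and 2 with only the groups compared. With the replicate block by recipient and only those groups they were 4321, 439, 926 and 4; the block over all libraries gave 1172 and 991 for the first 2. With array weights, a fit that did not reach its convergence tolerance, they were 3037, 4089, 699 and 3389. Within prefix JL019 they were 86, 36, 1 and 0, and within JL027 169, 71, 31 and 0. The Treg-treated count was 0 with a pseudocount of 0.1 and 2 with the label prefix as a block. Leaving out CD4 syngeneic JL019-2 gave 1387, 665, 373 and 2. Leaving out 1 library at a time gave 661 to 908, 535 to 991, 69 to 174 and 1 to 2. Leaving out JL019-2 in both lineages, chosen after seeing the data, gave 493.

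Of 2904 alternative values of the 121 genes named and called, 2618 kept their side of the threshold, 286 lost it and 0 reversed. All 121 stayed called with the replicate block over only the groups compared (3 lost it with the block over all libraries). Of 17 named genes that had not passed and were counted here, 9 passed with the block over only the groups compared. Others given above also passed with it. TRB clonality differed by 0.0541 without the random draw (exact permutation p = 0.0571), by 0.0356 in the replicate block (exact sign-flip p = 0.125) and by 0.0454 without JL019-2 in both lineages; leaving out 1 library gave 0.0314 to 0.0426. The clonotype difference was -224.5 without the draw, -784.0 in the replicate block, -907.7 without JL019-2 in both and -913.4 to -723.5 without 1 library. The share of the 10 largest clonotypes differed by 16.5 in TRA and that of the largest by 1.13 in TRB (exact permutation p = 0.0286). The smallest exact p is 0.0571 for 3 against 4 libraries. The cause was not tested, except where fewer libraries leave fewer degrees of freedom. Read depth of the RNA libraries is unknown, so no limit from counting can be given; 4 libraries a group and values near 0, where the pseudocount weighs most, limit the precision.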
